A study of Mus musculus with 6 samples.

Results

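The dystrophin glycoprotein complex was followed through 8 of its genes, Dmd, Utrn, Dag1, Sgca, Sgcb, Sgce, Dtna and Sspn, in mouse C2C12 cells, a line of myoblasts that fuse into muscle fibres once serum is reduced. The genes were chosen by symbol, and every probe set that the platform annotation pairs with exactly 1 of them was read. That gave 26 of the 34958 probe sets with 1 gene, and 8 of 18194 genes. Each transcript on this 1-colour Affymetrix array is measured by a set of short probes, and its deposited value is a log2 number, so that a difference of 1 unit is a 2-fold difference. Parental cells were sampled once in growth medium with 10% fetal bovine serum, and once each at day 0, day 2 and day 4 in differentiation medium with 2% horse serum, day 0 being just after the change of medium. The growth medium and day 0 arrays may also differ in cell density, so medium and density cannot be told apart in that step. The remaining pair of arrays came from cells at day 0 that had been stably transfected and kept under G418 (500 µg/ml) over 2 weeks of selection. One line carried a short hairpin RNA against Rp58 (shRp58), a zinc finger repressor whose current symbol is Zbtb18, and the other a control that the labels call both a LacZ vector and a control hairpin. Whether these lines were pools or single clones is not given in the sources used here. Each of the 6 groups held 1 array, so there is no replicate error, no difference was tested, and every value below describes those arrays.

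The complex spans the muscle cell membrane. Dystrophin holds actin on the inner side and binds β-dystroglycan, whose partner α-dystroglycan carries the sugar chains that bind laminin outside the cell. The sarcoglycans and sarcospan form a subcomplex in the membrane that steadies this link, and dystrobrevin and the syntrophins bind dystrophin inside the cell and carry signalling proteins. Loss of dystrophin causes Duchenne muscular dystrophy, and loss of α- or β-sarcoglycan causes limb-girdle muscular dystrophies.

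Across all 45101 probe sets, each time-course array had a median of 8.26 or 8.27 and each stable-line array one of 7.15. The time course and the stable lines are therefore on different scales, and levels were compared only within each of them. The hairpin's target Zbtb18 stood at 11.69 with the control and 11.16 with shRp58, a difference of -0.53 log2 units. Zbtb18, read by 1 probe set, was itself higher at each later time point. It read 11.18 in growth medium and 11.88, 12.86 and 13.06 at days 0, 2 and 4. How much of its difference between the lines was a direct effect of the hairpin was not tested. All 4 muscle lineage markers (Myod1, Myf5, Des, Cdh15) lay above the median of every array. The 5 markers of differentiated muscle (Myog, Ckm, Acta1, Myh3, Tnnt3) were all higher at each later time point, their log2 values summing to 47.0 in growth medium and to 61.6, 70.5 and 72.4 at days 0, 2 and 4, and all 5 were lower with shRp58, at 59.5 against 64.9. In whole cultures, fewer differentiated cells and less RNA per cell cannot be told apart, and this holds for every difference below. Of the endothelial markers 1 of 4 was above the median of any array, of the leukocyte markers 1 of 3 and of the adipocyte markers 0 of 2, against 2 of 2 Schwann or neuronal and 3 of 4 smooth muscle markers. All 4 smooth muscle markers were lower at day 0 than in growth medium and 3 of 4 were lower with shRp58, and 3 of 4 were higher at day 4 than at day 0. The 4 muscle lineage markers were all higher at day 0 than in growth medium (median 0.47) and all lower with shRp58 (median -0.13), and the part of the marker lists in the results below was not tested.

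**Figure D1:**
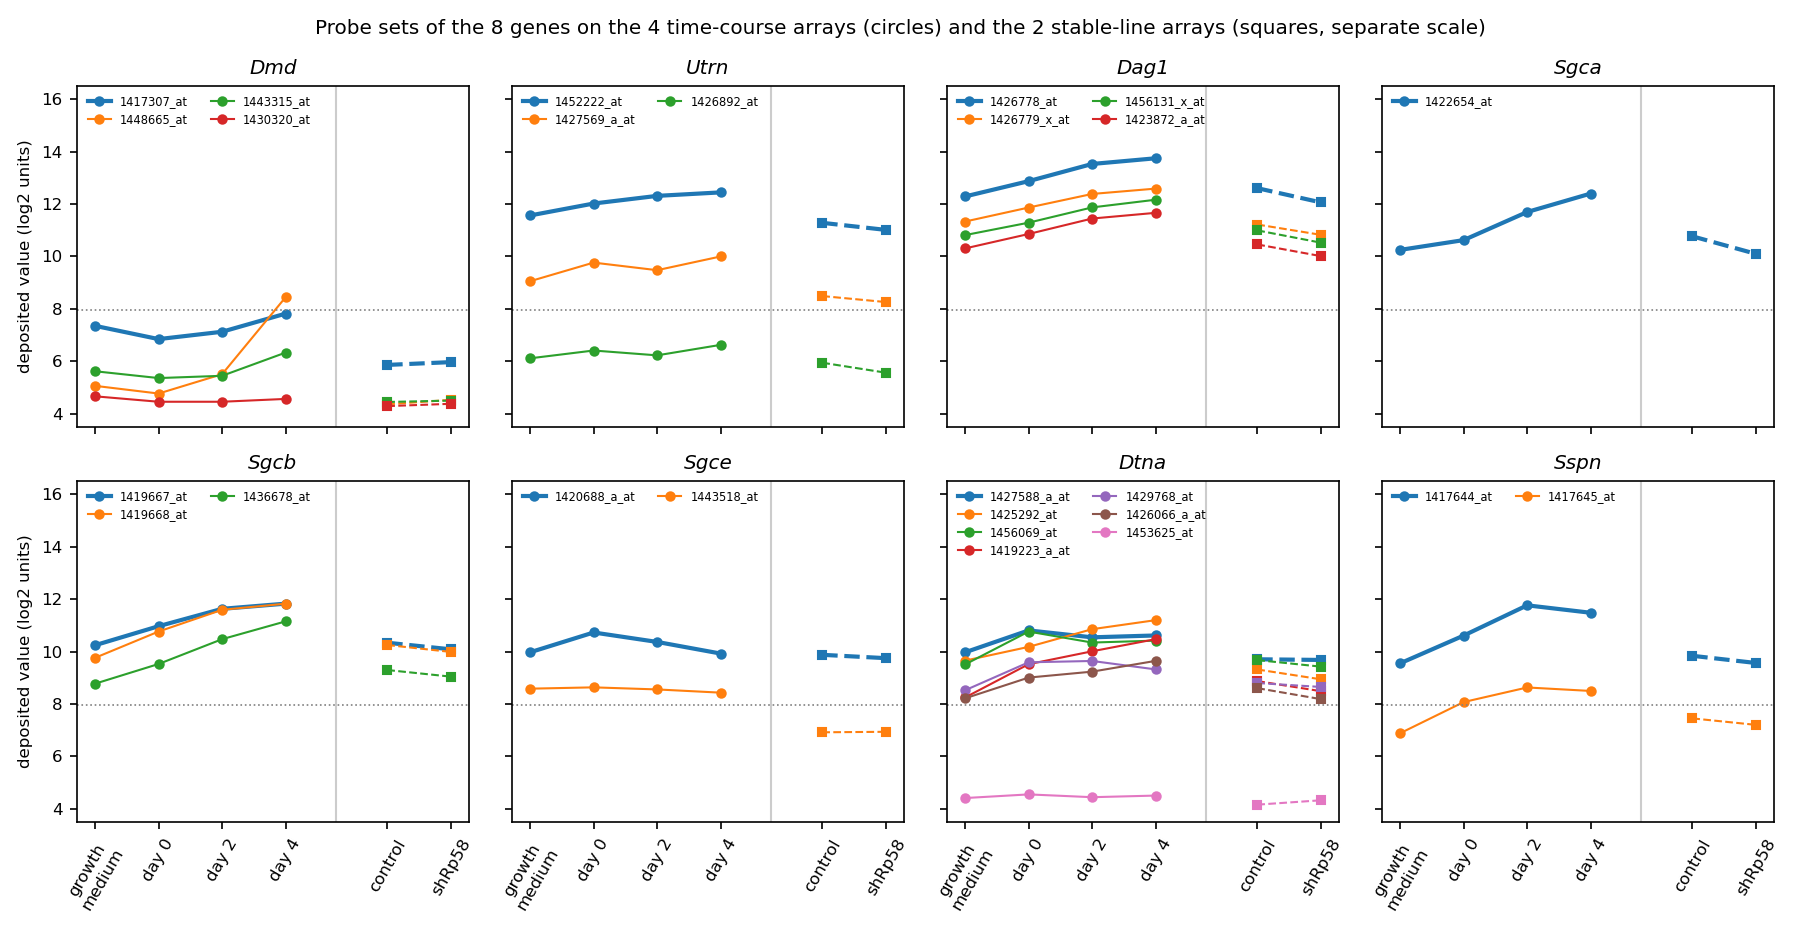
Deposited log2 value of each probe set of the 8 genes (one panel each) on the time-course arrays (circles, solid lines) and the stable-line arrays (squares, dashed lines, on a scale of their own); thick lines mark the brightest probe set and the dotted line the level filter of 7.95. The solid Dag1, Sgca and Sgcb lines go up from left to right at every step and their dashed lines go down. Sgce is highest at day 0, and most Dmd points lie under the dotted line.

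Dag1 encodes the precursor that is cut into α- and β-dystroglycan, the centre of the complex. Its brightest probe set, 1426778_at, read 12.29 in growth medium and 12.87, 13.53 and 13.74 at days 0, 2 and 4. Dag1 was thus higher at every step, and day 4 stood 2.74-fold above growth medium. The other 3 probe sets of the gene followed the same order, with differences between day 4 and growth medium of 1.26, 1.35 and 1.36 log2 units. In the stable lines Dag1 stood at 12.60 with the control and 12.06 with shRp58. The difference of -0.54 was lower than that of 97.4% of the 13242 genes kept, and the other probe sets gave -0.39, -0.44 and -0.47. Probe sets of one gene read the same RNA and are not replicates.

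Sgca encodes α-sarcoglycan, a sarcoglycan largely restricted to striated muscle. Its only probe set, 1422654_at, gave 10.25 in growth medium and then 10.62 (day 0), 11.69 (day 2) and 12.40 (day 4). Most of that difference came after day 0: the first step was 0.37, the step from day 0 to day 2 was 1.07 and that from day 2 to day 4 was 0.70. Day 4 stood 3.42-fold above day 0, which was the largest difference among the brightest probe sets of the 8 genes in this comparison and lay above that of 98.5% of the genes kept. The stable lines read 10.77 with the control and 10.10 with shRp58. That difference of -0.67, 1.59-fold, was the most negative of the 8 genes and lay below that of 98.2% of all genes kept.

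Sgcb encodes β-sarcoglycan, which is made in many tissues as well as muscle. Its brightest probe set, 1419667_at, read 10.24, 10.97, 11.63 and 11.83 in growth medium and at days 0, 2 and 4. Sgcb was therefore higher at every step, and in this probe set the first step (0.73) was the largest and the last (0.20) the smallest. In 1436678_at the steps were 0.75, 0.95 and 0.68, with the middle one largest as in Sgca, so the order of the steps depends on the probe set. It also depends on the normalization: the first 2 steps of 1419667_at were 0.53 and 0.79 after quantile and 0.54 and 0.77 after loess. The 3 probe sets agreed in order and not in size, since day 4 exceeded growth medium by 1.59, 2.06 and 2.38 log2 units. For 1436678_at, the dimmest of the 3, day 4 stood 1.63 above day 0, against 0.86 for the brightest. In the stable lines Sgcb read 10.34 with the control and 10.08 with shRp58, and its 3 probe sets gave -0.25, -0.25 and -0.26.

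The bases just upstream of their annotated starts are shown for these 2 sarcoglycans, since both were higher at each time point and lower with shRp58. The windows hold the 250 bases before the start, from RefSeq on GRCm38.p6, chr11:94976328-94976577 for Sgca and chr5:73647738-73647987 for Sgcb, both on the minus strand. Capitals mark matches to the motifs that were searched.
Sgca: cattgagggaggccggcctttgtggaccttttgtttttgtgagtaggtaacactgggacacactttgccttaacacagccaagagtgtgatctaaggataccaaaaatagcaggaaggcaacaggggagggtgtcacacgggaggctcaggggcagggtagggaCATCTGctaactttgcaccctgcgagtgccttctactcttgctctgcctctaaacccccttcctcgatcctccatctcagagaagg
Sgcb: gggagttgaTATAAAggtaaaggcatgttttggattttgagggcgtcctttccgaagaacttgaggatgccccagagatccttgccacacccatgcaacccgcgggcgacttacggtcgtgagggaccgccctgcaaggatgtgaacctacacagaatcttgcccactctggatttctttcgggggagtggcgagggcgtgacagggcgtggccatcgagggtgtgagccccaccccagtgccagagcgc
The capitals in Sgca are an E-box, the class of site (CANNTG) that myogenic factors of the MyoD family bind, from 86 to 81 bases before the start. Read on the other strand it is CAGATG, the E-box type contained in the sites that Rp58 is known to bind. CAGATG, searched on both strands, is held by 14.4% of the 32851 RefSeq windows of this length, so a match is frequent. The Sgcb window held no E-box, and its capitals are a TATAAA match that lies 241 to 236 bases before the start.

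Sgce encodes ε-sarcoglycan, the close relative of α-sarcoglycan that is widespread outside muscle. Its brightest probe set, 1420688_a_at, read 9.97 before the change of medium, and 10.73, 10.37 and 9.92 at days 0, 2 and 4. Sgce was thus highest at day 0 and by day 4 was back near its growth medium level. Between day 0 and day 4 it differed by -0.80, while Sgca differed by 1.78 over the same arrays. The second probe set, 1443518_at, moved little, from 8.63 at day 0 to 8.43 at day 4, so the size of the Sgce difference depends on the probe set. With shRp58 the probe sets gave -0.13 and 0.02.

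Sspn encodes sarcospan, a small protein with several membrane spans that joins the sarcoglycans. Probe set 1417644_at gave 9.55 in growth medium and 10.61, 11.76 and 11.48 at days 0, 2 and 4. Sspn was at least 2-fold higher at each of the first 2 steps, by 1.06 and 1.15, and then slightly lower, by -0.28. The first of these values was 0.88 after quantile and 0.89 after loess normalization and then missed 2-fold. The dimmer probe set, 1417645_at, had the same order (6.88, 8.07, 8.63 and 8.50) but a step of only 0.56 between day 0 and day 2. In the stable lines the brighter probe set stood at 9.84 with the control and 9.56 with shRp58, a difference of -0.27.

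Dystrophin itself was read at the dim end of the array. The brightest of the 4 Dmd probe sets, 1417307_at, read 7.35, 6.85, 7.13 and 7.82 in growth medium and at days 0, 2 and 4, all below the level filter of 7.95, the median of all values. Probe set 1448665_at read 5.06, 4.77, 5.51 and 8.44 and crossed the filter at day 4 alone. The difference of 3.67 between day 4 and day 0 in that probe set starts from the lowest few percent of the array, so its size is not exact, and 1417307_at gave 0.97. The other probe sets gave 0.97 (1443315_at) and 0.11 (1430320_at), so that 3 of the 4 were highest at day 4 but differed in size, and the dimmest stayed flat. In the stable lines all 4 read between 4.29 and 5.97, with differences from 0.05 to 0.17. These levels are too dim to show whether Dmd differed between the lines. The gene is transcribed from several promoters into long and short proteins that share their last exons, and which of them each probe set reads was not analysed here.

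Utrn encodes utrophin, the autosomal relative of dystrophin that is found along the membrane of immature fibres and at the neuromuscular junction of mature ones. Its brightest probe set, 1452222_at, read 11.56 in growth medium and 12.02, 12.31 and 12.44 at days 0, 2 and 4. Utrn was higher at every step, by 0.46, 0.29 and 0.13, and day 4 stood 1.84-fold above growth medium. After quantile normalization the first step was 0.26 and the middle one 0.41, and after loess they were 0.26 and 0.40. In 1427569_a_at the middle step was negative (-0.29), and in 1426892_at, which is dim, it was -0.18, so the direction between day 0 and day 2 depends on the probe set. All 3 probe sets were lower with shRp58, by -0.23 to -0.38, the brightest standing at 11.28 with the control and 11.01 with shRp58.

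The upstream windows of dystrophin and utrophin are shown side by side because the proteins are relatives and the array read them at different ends of its range. They lie at chrX:82948620-82948869 on the plus strand for Dmd, at the first of the 2 starts in the promoter table, and at chr10:12861736-12861985 on the minus strand for Utrn. Unlike the windows of Sgca and Sgcb, which lie at the outer end of the RefSeq gene, these starts lie inside it, 134 kb from its outer end for Dmd and 8.15 kb for Utrn. Capitals again mark motif matches.
Dmd: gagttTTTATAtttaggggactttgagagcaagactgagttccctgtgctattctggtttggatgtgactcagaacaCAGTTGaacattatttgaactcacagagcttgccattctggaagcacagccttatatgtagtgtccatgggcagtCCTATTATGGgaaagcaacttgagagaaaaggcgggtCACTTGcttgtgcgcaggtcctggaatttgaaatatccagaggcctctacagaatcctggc
Utrn: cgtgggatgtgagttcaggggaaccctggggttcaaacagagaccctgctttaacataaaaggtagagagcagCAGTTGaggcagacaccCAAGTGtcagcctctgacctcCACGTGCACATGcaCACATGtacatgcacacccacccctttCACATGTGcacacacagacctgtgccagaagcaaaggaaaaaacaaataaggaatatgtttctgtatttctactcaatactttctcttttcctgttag
The Dmd window held 2 E-boxes, a TATAAA match on the minus strand and, 98 to 89 bases before the start, a CArG box, the site of serum response factor, which 1.47% of all windows of this length hold. The second Dmd start in the table had no match. The Utrn window held 7 E-boxes, of which 2 overlap. Several of them lie in stretches of repeated CA and TG, the letters that open and close an E-box. How many windows of all genes hold as many was not counted. Whether transcription begins at these starts in these cells was not analysed here.

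RefSeq windows were used for 6 of the 8 genes, 9 windows in all. Windows on chromosome 18, where Dtna lies, were left out of the 9 but not out of the windows of all genes. An E-box was in 6 of the 9 (66.7%), against 66.2% of all windows, so its presence does not set these genes apart. The E-box is shared by both Dag1 windows, which overlap. CAGATG was in 1 of 9 windows against 14.4%, CAGCTG, an E-box type preferred by MyoD, in 0 against 13%, TATAAA in 2 against 12.4%, and a MEF2 site in 0 against 0.508%. A match is a description of these letters and not evidence of binding.

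**Figure D2:**
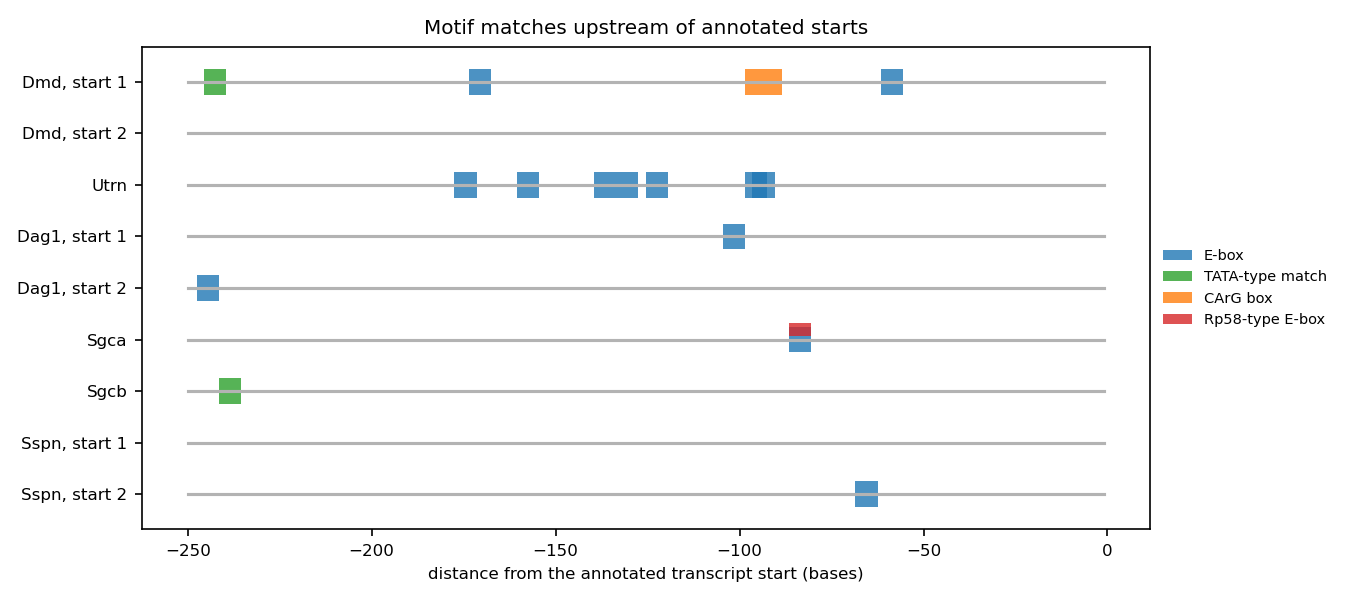
Positions of motif matches in the 250 bases before each annotated start of the 6 genes whose RefSeq windows were used; the horizontal axis is the distance from the start in bases and coloured blocks are matches, with the Rp58-type E-box drawn as a raised block on the E-box it is part of. The Utrn window holds 7 E-boxes, a number not counted over all windows, and the Sgca window the only Rp58-type one.

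Dtna encodes α-dystrobrevin, a relative of dystrophin's end region made in several spliced forms. It was read by 7 probe sets, of which 1453625_at lay at 4.41 to 4.55 in the time course and is not considered further. The brightest, 1427588_a_at, read 9.97 in growth medium and 10.81, 10.54 and 10.61 at days 0, 2 and 4. All 6 remaining probe sets were higher at day 0 than in growth medium, by 0.52 to 1.27. After day 0 they parted. Probe set 1425292_at went on from 10.18 at day 0 to 10.85 and 11.20 at days 2 and 4, and 1419223_a_at from 9.52 to 10.01 and 10.47. Probe set 1426066_a_at likewise went from 9.01 to 9.23 and 9.64, so that these 3 stood 0.64 to 1.02 above day 0 at day 4. The 3 others, 1427588_a_at, 1456069_at and 1429768_at, were lower at day 4 than at day 0, by -0.19, -0.35 and -0.27. These groups were made after the time-course values were seen, without use of the stable lines. Probe sets of one gene are not replicates, so the stable-line values are no test of the groups. The 3 probe sets that went on upward gave -0.37, -0.38 and -0.42 for shRp58 minus control, and the others -0.03, -0.25 and -0.15. The brightest of them turned to 0.01 after quantile and 0.00 after loess normalization. Which spliced forms the probe sets read was not analysed here.

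**Figure D3:**
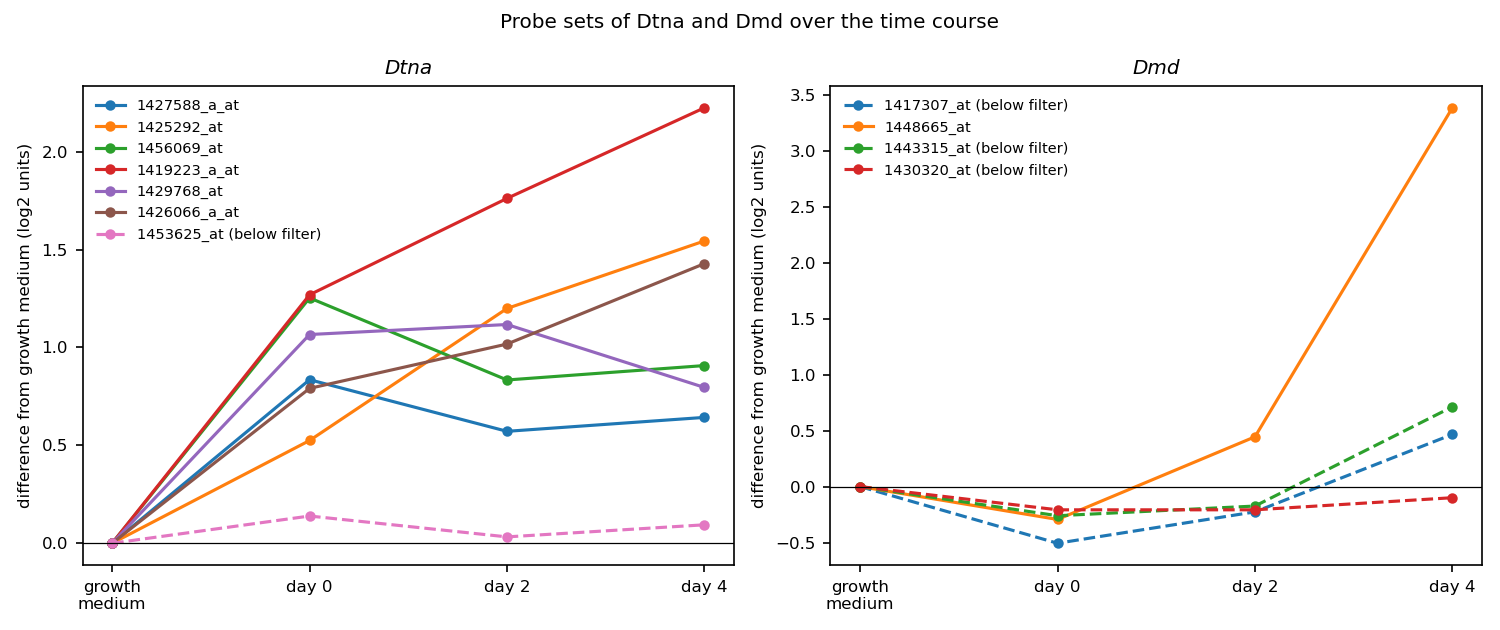
Difference from growth medium, in log2 units, of each probe set of Dtna (left) and Dmd (right) at day 0, day 2 and day 4; dashed lines are probe sets that stayed below the level filter. For Dtna, 3 solid lines go on upward after day 0 and the other 3 are lower at day 4 than at day 0, and for Dmd a single line reaches 3.38 at day 4.

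Counted by gene, with the brightest probe set standing for each, 7 of the 8 genes passed the level filter, and all 7 lay well above it on every array, so none passed through a single high array. Dmd did not pass. From growth medium to day 0 all 7 were higher, where 61.2% of all genes kept were, and 1 of them, Sspn, was at least 2-fold higher, where 2.91% were, while 0 were 2-fold lower (0.317% of all genes). The median of the 7 was 0.73, against 0.10 for all genes. Quantile normalization moved the median of all genes in this comparison by -0.12, to -0.03, and that of the 7 to 0.53. After loess normalization these medians were 0.01 and 0.54. Among genes that reached 9.62, the upper quartile of all values, they were 0.19 and 0.73. Relative to the deposited median of all genes the median of the 7 was 0.63.

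From day 0 to day 2, 5 of the 7 were higher, against 48% of all genes, and Sgca and Sspn were at least 2-fold higher, against 2.67%. Sgce and Dtna were lower, and 0 of the 7 were 2-fold lower, against 2.96%. The median of the 7 was 0.66, against -0.01 for all genes. At day 4 against day 0 the same 5 genes were higher (45.2% of all genes), 1 of them, Sgca, at least 2-fold (3.83%), 0 were 2-fold lower (5.66%), and the median was 0.86 against -0.04. Dag1 (0.87), Sspn (0.87) and Sgcb (0.86) stood close to each other and just short of 2-fold. From day 2 to day 4 the median was 0.13, with 5 of 7 higher (43.9% of all genes) and 0 past 2-fold in either direction (0.808% in each). Utrn, Dag1, Sgca and Sgcb were higher at every step of the time course, 4 of 7, a course that 12.6% of all genes had. For Utrn this rests on its brightest probe set, since the other 2 were lower at day 2 than at day 0. Neighbouring comparisons share an array, so their values are not independent.

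Between the stable lines all 7 genes were lower with shRp58, where 51.3% of all genes were, and 0 of 7 were 2-fold lower, where 0.619% were (2-fold higher: 0 of 7 and 0.0529%). Their differences were -0.67 (Sgca), -0.54 (Dag1), -0.27 (Sspn), -0.27 (Utrn), -0.25 (Sgcb), -0.13 (Sgce) and -0.03 (Dtna), with a median of -0.27 against -0.01 for all genes. The sign of the Dtna value turned after quantile and loess normalization, as given above. Lower values with shRp58 and higher values at day 4 than at day 0 were found together in 5 of the 7, Utrn, Dag1, Sgca, Sgcb and Sspn, against 28.5% of all genes. Whether Dtna belongs with these 5 depends on the probe set: with the mean of its probe sets it stood at 0.25 at day 4 and -0.21 between the lines, and with the one of widest range at 0.96 and -0.38. The 5 markers of differentiated muscle were lower with shRp58 by a median of -1.27, and what part this had in the values of the complex was not tested.

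**Figure D4:**
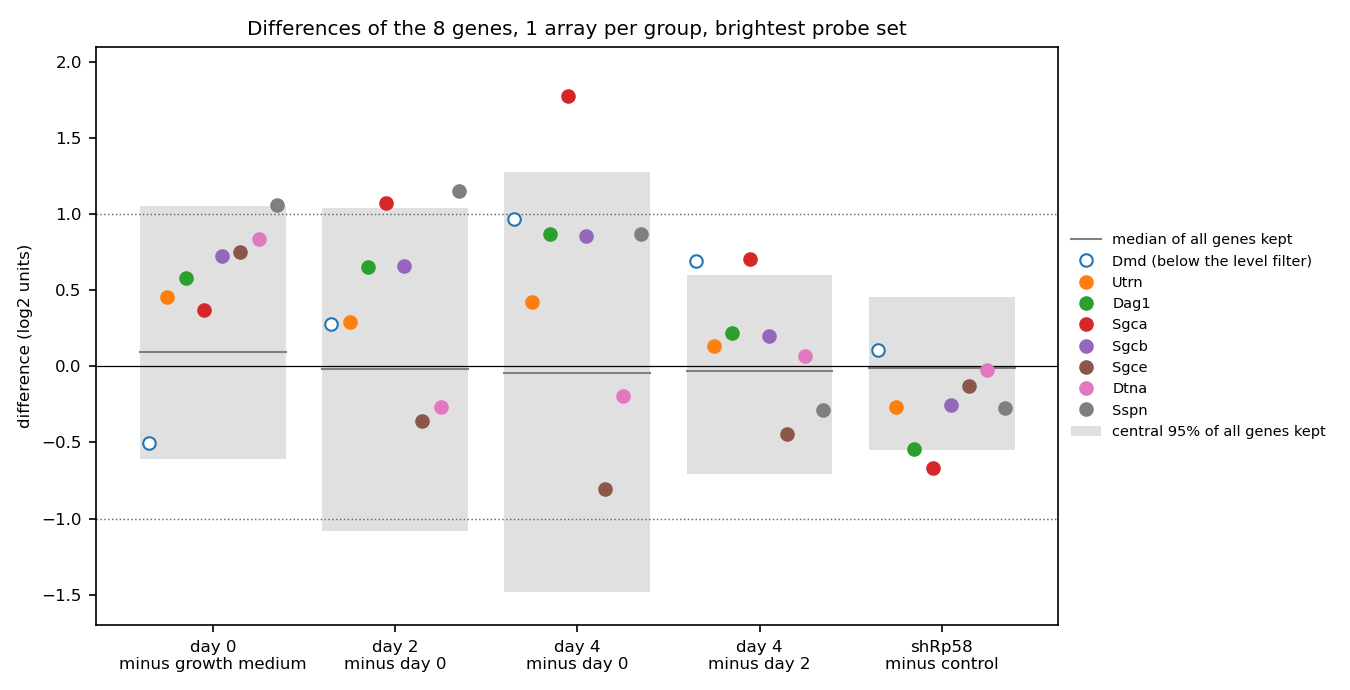
Difference in log2 units of the 8 genes (coloured points, brightest probe set; Dmd open because it did not pass the level filter) in each of the 5 comparisons, 1 array per group. Grey bars give the central 95% of the 13242 genes kept and dotted lines mark 2-fold; with shRp58 the points of Sgca (-0.67) and Dag1 (-0.54) lie lowest.

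Around the complex, 55 further genes were listed by role, of which 48 were read, 7 were not analysed here and 43 passed the level filter. At day 4 against day 0, 24 of the 43 were higher (45.2% of all genes kept) and 19 lower, with a median of 0.09 against -0.04. At 2-fold 1 of the 43 was higher (Cav3, 3.83% of all genes) and 1 lower (Krt19, 5.66%), so in this setting the counts past 2-fold lay near the background. The count higher was 2 of 43 after quantile and 4 of 43 after loess normalization, and 5 of 41 with the probe set of widest range. The share of all genes was not counted in those settings. With shRp58, 29 of 43 were lower (51.3% of all genes) and 13 higher, with a median of -0.12 against -0.01, and 1 gene, Cav3, was 2-fold lower (0.619%). Cav3 encodes caveolin-3, the muscle caveolin that binds β-dystroglycan, and read 7.05, 7.54, 9.66 and 11.55 over the time course. It stood at 8.10 with the control and 6.89 with shRp58, a difference of -1.21. Its values in growth medium, at day 0 and with shRp58 are below the median of their own array, so these sizes are not exact. Krt19, a keratin reported to link dystrophin to the cell's costameres, went the other way, from 11.10 at day 0 to 8.10 at day 2 and 9.10 at day 4, and stood 0.86 higher with shRp58.

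Among the intracellular partners, Sntb1, which encodes β1-syntrophin, an adaptor that binds dystrophin and dystrobrevin, read 8.81 in growth medium and 10.33, 11.42 and 11.25 at days 0, 2 and 4. Its first step of 1.52 was the only one past 2-fold among the 43 genes between growth medium and day 0. Of all genes kept, 2.91% were 2-fold higher in that step. Sntb1 stood at 10.00 with shRp58 and 10.84 with the control. With the mean of all probe sets 0 of the pathway genes passed 2-fold between growth medium and day 0. The 6 probe sets of Sntb1 ranged from -0.40 to 1.64 in that first step and from -1.21 to -0.11 between the lines, so its size depends on the probe set. Sntb2, for β2-syntrophin, was 9.60 at day 0 and 9.27 at day 4. Nos1, the neuronal nitric oxide synthase that syntrophin holds at the membrane, differed by 0.35 between day 0 and day 4, and Dtnb, for β-dystrobrevin, by 0.03. The δ-sarcoglycan gene Sgcd read between 7.23 and 7.47 over the time course, below the filter.

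Genes for the ligands and the enzymes of dystroglycan stood on both sides of 0 at day 4. All 9 extracellular genes that passed were higher at day 0 than in growth medium (61.2% of all genes), by 0.21 to 0.93. Their median was 0.41 against 0.10 for all genes and 0.19 for genes that reached 9.62, as most of these did. At day 4 against day 0, however, 4 were higher (45.2% of all genes) and 5 lower (median 0.00). Bgn, the proteoglycan biglycan that binds α-dystroglycan and sarcoglycans, read 12.62, 13.37, 14.20 and 14.27 over the time course, and it was lower with shRp58 by -0.74. Lama2, the laminin chain of adult muscle basement membrane, had its main step at day 0 (0.93) and then differed by 0.20 up to day 4, while Lamc1 (-0.72) and Lamb1 (-0.70) were lower at day 4 than at day 0. Of the 14 genes for the sugar chains of α-dystroglycan 8 were higher (45.2% of all genes) and 6 lower at day 4 (median 0.10). None of them was 2-fold higher (3.83% of all genes) or 2-fold lower (5.66%) at day 4. Between the lines they ranged from -0.20 to 0.19. Integrins form the other laminin link of muscle, and the 7 listed genes of that link are the integrin subunits Itga7 and Itgb1 and the adaptors Vcl, Tln1, Tln2, Ilk and Parva. All 7 were higher at day 0 than in growth medium (61.2% of all genes), by 0.16 to 0.78 (median 0.31 against 0.10). All 7 are bright, and among genes that reached 9.62 the median in this step was 0.19. Quantile normalization moved the median of all genes in this step by -0.12, and the values of these 7 were not read after it. At day 4 against day 0, 3 were higher (45.2% of all genes) and 4 lower, with a median of -0.03. Their values ran from -0.62 (Tln2) to 0.53 (Itga7), and the 6 probe sets of Itgb1 alone ran from -0.43 to 1.51 (from -0.47 to 0.51 at day 0 against growth medium), so its direction depends on the probe set in both comparisons.

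**Figure D5:**
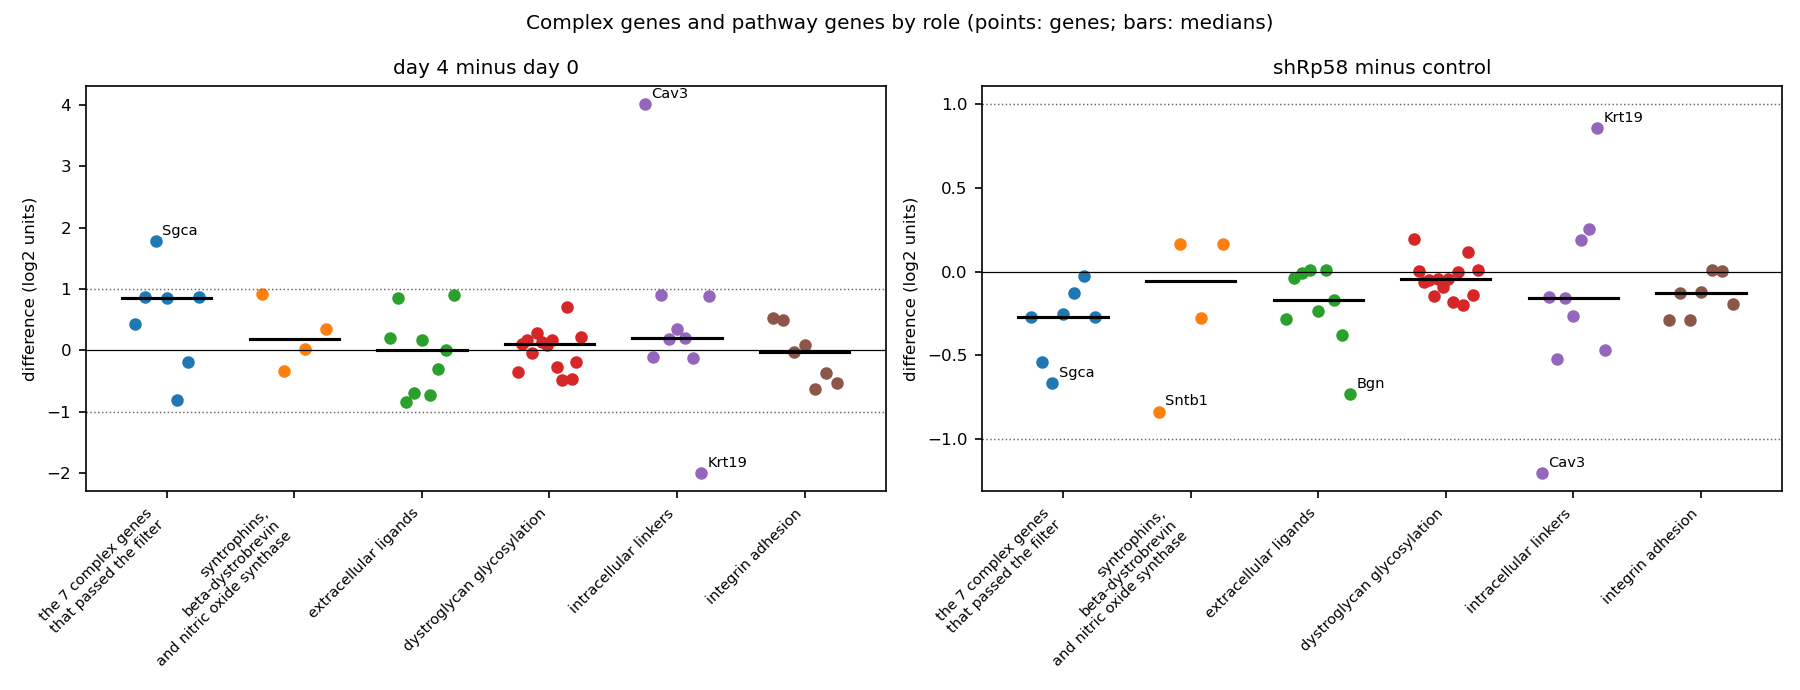
Differences in log2 units between day 4 and day 0 (left) and between shRp58 and control (right) for the 7 complex genes that passed the level filter and for the 43 pathway genes by role; points are genes, black bars medians and dotted lines 2-fold. Medians are 0.86 (left) and -0.27 (right) for the complex, and Cav3 lies past 2-fold in both panels.

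The genes nearest in pattern were found for the members that were at least 2-fold apart in any comparison, Sgca and Sspn, by Euclidean distance over 4 differences (3 successive steps of the time course and shRp58 minus control). For Sgca these were Pacsin3 (distance 0.21), Tbx15 (0.29) and Herpud1 (0.31), and 29 genes lay within 0.5. For Sspn they were Gsto2 (0.21), Serpinb1a (0.23) and Dpp7 (0.25), and 35 genes lay within 0.5. Pacsin3, which encodes a membrane-curving protein, read 10.26, 10.76, 11.74 and 12.33 over the time course and differed by -0.62 between the lines, next to -0.67 for Sgca.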

How the data were processed

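The authors summarised the intensities of the Affymetrix mouse whole-genome arrays with the RMA algorithm, per the labels' series text, and deposited them as log2 values. Its software and version, and whether it was run on all arrays at once, were not stated. The small number of arrays limits the precision. Probe sets were named through the platform annotation, which gave 1 gene for 34958 of 45101 probe sets, and 34754 of these matched the RefSeq gene table of GRCm38.p6 by Entrez ID. A gene was represented by its brightest probe set (mean of 6 arrays) and had to reach 7.95, the median of all values, on at least 1 array; 13242 genes did. Differences are of log2 values between 2 arrays; "2-fold" is the threshold for counts, which are set beside the same counts over all genes kept. The counting was tested on simulated data. Upstream windows came from the RefSeq promoter table.

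Named genes are the 8 members, 55 listed pathway genes, cell type markers and, for members past 2-fold in any comparison, the 3 genes nearest in pattern. Members and lists were chosen with earlier results of these data known. Alternatives were 3 other normalizations (array median, quantile, and cyclic loess with limma 3.58.1), 2 other filters, 2 other rules for the probe set of a gene and a 1.5-fold threshold, with 2 more added after seeing the data. Python 3.11.15 and R 4.3.3 were used.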

Additional observations from a re-analysis of the deposited data

How the results depend on the processing

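No paired analysis was possible because each group held 1 array. Between growth medium and day 0 the count of complex genes at least 2-fold higher was 1 as reported, 0 after quantile and after loess normalization, 2 with the probe set of widest range and 4 at a 1.5-fold threshold. From day 0 to day 2 the count of 2 became 1 with the mean of all probe sets and 4 at 1.5-fold. At day 4 against day 0 the count of 1 became 2 with the mean of all probe sets, 3 with the widest range and 4 at 1.5-fold, where 1 gene was also lower. From day 2 to day 4 the count of 0 became 1 with the widest range and 1 at 1.5-fold, and the median over the complex genes became 0.49 with the widest range. For shRp58 minus control, 1 gene was lower at 1.5-fold and 0 at 2-fold. The widest range lets Dmd pass the filter through its day 4 value. Some settings could not move the results of the complex genes. The stricter filter and the filter on the percentile within an array kept the same 7 genes with the same values. Dropping the filter and taking all 8 members gave the same values as each other. The other 87 of 100 counts, many of them 0 throughout, moved by no more than 1.5-fold. Of the medians 44 of 45 moved by less than the spread of all genes. Of 200 single-gene differences 182 moved by less than that spread and 18 by more, and 8 changed sign, all of Utrn or Dtna: Utrn between day 0 and day 2 became -0.06 with the mean and -0.29 with the widest range, and Dtna between day 0 and day 4 became 0.25 and 0.96. Pathway counts at day 4 against day 0 were 1 higher as reported, 2 after quantile, 4 after loess and 5 with the widest range. With the mean of all probe sets they were 0 in place of 1 between growth medium and day 0, and 1 in place of 2 between day 0 and day 2. Dim probe sets limit Dmd.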
